A study of Mus musculus with 12 samples.

Results

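Greb1l, Greb1 and Cdk15 are 3 of the 19938 genes measured in these arrays, and they were read with all 4 of their probe sets that carry a single gene symbol. Greb1l and Cdk15 were chosen because their values were much higher after treatment with all-trans retinoic acid (ATRA), and Greb1 was added as the paralogue of Greb1l. Their difference between ATRA and its solvent is therefore a description here, with no test for Greb1l and Cdk15. Gene expression had been measured on Affymetrix arrays in cells of the mouse line D3, an embryonic stem (ES) cell line, as 4 groups of 3 biological replicates. The groups are undifferentiated ES cells at day 0, day 4 embryoid bodies (EBs, aggregates formed in bacteriological dishes without the cytokine LIF), EBs treated with the solvent DMSO for 12 h, and EBs treated with ATRA at 5 micromolar for 12 h. All groups come from 1 clone of D3. It is not clear from the labels whether the treatment ended at day 4 or began there.

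Retinoic acid enters the nucleus and binds retinoic acid receptors, which sit with retinoid X receptors on DNA and switch target genes on when the ligand arrives. Greb1 is known as an early estrogen-induced gene of breast cancer cells, and its protein is a cofactor of the estrogen receptor. Its paralogue Greb1l is needed for kidney and inner ear development, and in humans variants that disrupt it are a cause of missing kidneys. Cdk15 encodes a little-studied member of the cyclin-dependent kinase family, closest to Cdk14, a kinase that works with membrane-bound cyclin Y.

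The arrays had medians between 7.76 and 7.86 on the log2 scale. Levels below are log2 probe set values, given as means ± SD (n = 3), and differences are log2 differences ± SE from a limma fit over all 12 arrays. A gene was called when its p-value, adjusted over all 19938 genes, was below 0.05. The pluripotency genes Pou5f1, Nanog, Sox2, Zfp42 and Esrrb had a mean level between 12.69 and 12.84 in the 9 arrays without ATRA and between 12.56 and 12.61 in the 3 ATRA arrays, below all others. Between ATRA and DMSO, Pou5f1 (0.005 ± 0.039), Nanog (-0.006 ± 0.048) and Esrrb (-0.13 ± 0.05) were not called, and Zfp42 differed most (-0.57 ± 0.06). Of 7 known ATRA response genes measured, 7 were called higher with ATRA than with DMSO and 0 lower, against 6.26% and 7.05% of all genes. Among the 7 was Rarb, a retinoic acid receptor gene, higher by 1.68 ± 0.09.

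Greb1l stood at 8.64, 8.36 and 8.35 in the 3 ES arrays and at 7.88, 7.94 and 7.89 in the day 4 EB arrays. With DMSO it read 8.17, 8.19 and 8.23, and with ATRA 9.65, 9.59 and 9.58. The 4 groups did not overlap, and their order from low to high was day 4 EBs, DMSO, ES cells and ATRA. The second Greb1l probe set, a second reading of the same gene, was at 8.45, 8.26 and 8.51 in ES cells and 7.96, 7.92 and 8.00 in day 4 EBs. It was at 8.21, 8.19 and 8.32 with DMSO and 9.39, 9.41 and 9.39 with ATRA. Here the DMSO and ES ranges overlapped, while the day 4 EB arrays were again the lowest and the ATRA arrays the highest. The 2 probe sets followed each other over the 12 arrays (Pearson's r = 0.990, given as a description).

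Cdk15 stood at 6.88, 7.09 and 7.16 in ES cells and at 6.61, 6.58 and 6.52 in day 4 EBs. It read 6.40, 6.52 and 6.49 with DMSO and 8.16, 8.19 and 8.23 with ATRA. The DMSO and day 4 EB arrays overlapped at the bottom, the ES arrays lay above both, and the ATRA arrays lay above all others.

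Greb1 read 7.08, 7.18 and 7.02 in ES cells, 6.99, 7.06 and 6.81 in day 4 EBs, 6.77, 6.85 and 6.89 with DMSO, and 6.92, 6.83 and 7.02 with ATRA. Day 4 EBs overlapped every other group, DMSO overlapped ATRA, and the ES arrays lay above the DMSO arrays. The table used here holds no detection calls, so whether the Greb1 probe set lies above the background of the arrays was not tested. The same holds for Cdk15 in day 4 EBs and with DMSO, where it read 6.40 to 6.61, and its folds against those groups are as measured, with that limit.

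**Figure D1:**
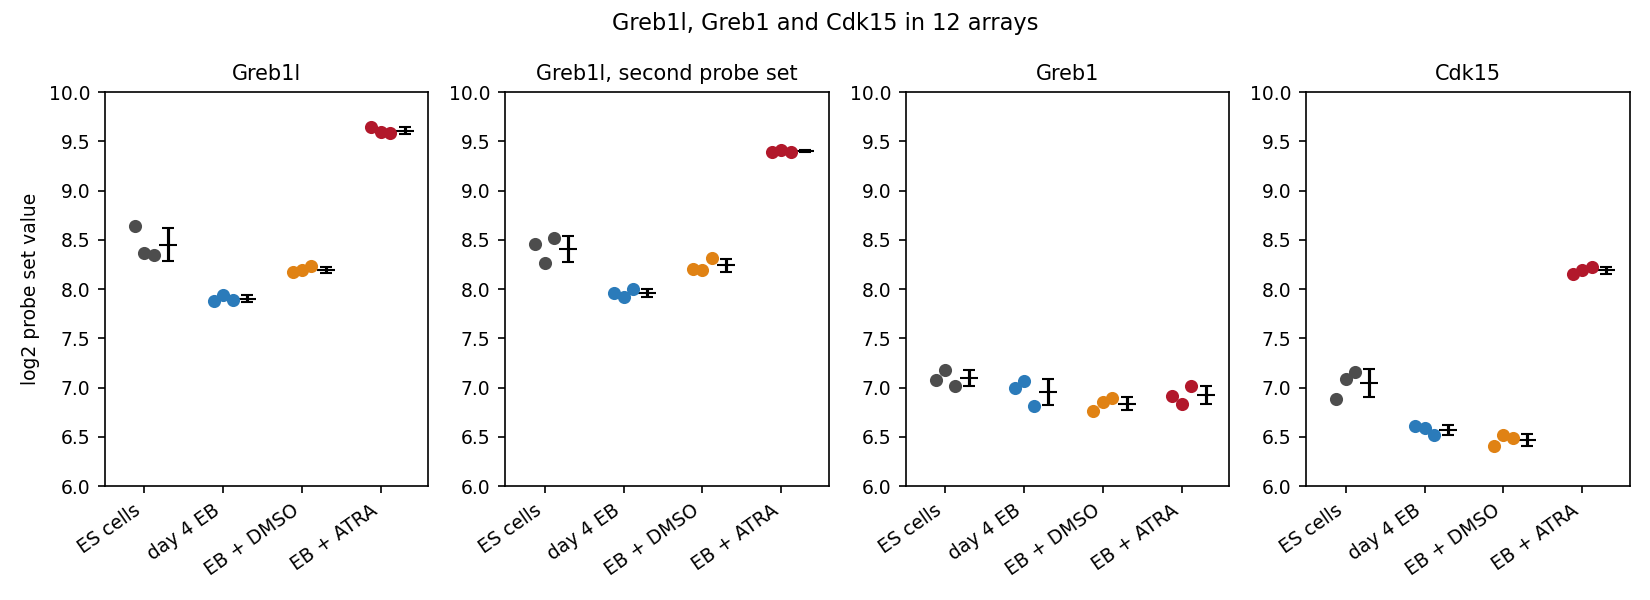
Log2 values of the 4 probe sets of Greb1l, Greb1 and Cdk15 in each of the 12 arrays, by group; points are arrays, and the black marks are the mean ± SD of 3 arrays. The ATRA arrays of Greb1l (9.58 to 9.65) and Cdk15 (8.16 to 8.23) lie above all other arrays of the same probe set, and Greb1 stays between 6.77 and 7.18.

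RefSeq windows of assembly GRCm38.p6, running from 250 bases before to 50 after an annotated start, were found for 2 of the 3 genes, Cdk15 and Greb1. The 250 bases before the start of Cdk15, whose level differed with ATRA, and of Greb1, whose level did not pass the test, are shown 5′ to 3′ on the strand of each gene. Capitals mark half-sites of nuclear receptors, searched on both strands as AGGTCA, the variant GGGTCA, the variant AGTTCA and the variant GGTTCA. The Cdk15 stretch is chr1:59256656-59256905 on the plus strand, and the Greb1 stretch is chr12:16800887-16801136 on the minus strand.
Cdk15: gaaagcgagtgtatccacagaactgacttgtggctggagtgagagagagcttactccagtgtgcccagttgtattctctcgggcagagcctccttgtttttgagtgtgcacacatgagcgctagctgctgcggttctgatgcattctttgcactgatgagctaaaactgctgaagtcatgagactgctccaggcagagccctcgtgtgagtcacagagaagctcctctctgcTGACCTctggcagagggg
Greb1: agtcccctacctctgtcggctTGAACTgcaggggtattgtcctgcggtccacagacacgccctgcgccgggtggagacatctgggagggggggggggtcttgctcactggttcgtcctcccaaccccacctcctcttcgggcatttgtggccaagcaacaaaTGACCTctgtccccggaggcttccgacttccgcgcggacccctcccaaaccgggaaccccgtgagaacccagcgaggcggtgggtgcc
The Cdk15 window held 2 half-sites, AGGTCA on the minus strand from 18 bases before the start and GGTTCA on the plus strand from base 30 after it. The Greb1 window also held 2, from 229 and 88 bases before the start, and a second annotated Greb1 start had 2 more. Of all 32851 such windows of the RefSeq table, 43.7% hold at least 1 half-site, so such matches are common. Direct repeats of the half-site with 1, 2 or 5 bases between, the arrangements that retinoic acid receptors are known to prefer, were in 0.222%, 0.268% and 0.0974% of windows and in none of the Cdk15 and Greb1 windows. The palindromic estrogen response element is GGTCA followed after 3 bases by its reverse complement TGACC, and it overlaps the half-sites that end in GGTCA. It was in 0.07% of windows and in none of the Cdk15 and Greb1 windows either. A match is a run of letters and not a shown binding site.

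The step from ES cells to day 4 EBs was not used to choose the genes and was tested. Greb1l and Cdk15 both fell: Greb1l by 0.55 on the log2 scale (-0.55 ± 0.07, or 1.46-fold lower, limma adjusted p = 4.45e-05) and Cdk15 by a similar amount (-0.48 ± 0.07, or 1.39-fold lower, limma adjusted p = 0.000106). The spread in this fit came from all 12 arrays, the ATRA and DMSO arrays of the choice among them. With only the ES and day 4 EB arrays, limma adjusted p was 0.00227 for Greb1l and 0.00324 for Cdk15. The second Greb1l probe set also fell (-0.45 ± 0.06, limma adjusted p = 0.000116 in a fit over every probe set). Greb1 did not pass the test, at -0.14 ± 0.07 (limma adjusted p = 0.174), with a 95% interval from -0.30 to 0.02. Over all genes, 34.7% were called in this step, 17.8% higher and 16.9% lower, against 2 of these 3 genes called lower. The ranges of both genes were apart from ES cells, as they were in the lower direction for 20.1% of all genes. Aggregation, culture without LIF and time change together here and cannot be told apart. Markers of fibroblasts and mesenchyme moved with the fall: 8 of 10 were called lower and 0 higher, and the mean level of the list went from between 9.17 and 9.18 in the ES arrays to between 7.97 and 8.09 in the day 4 EB arrays. Other marker lists moved the opposite way: 6 of 6 endoderm markers were called higher, led by Ttr (3.19 ± 0.12), and 3 of 3 epiblast markers, led by Otx2 (2.92 ± 0.06). Of the 6, Afp lost its call in 7 of 12 fits that each left out 1 array (highest limma adjusted p = 0.144). Of 3 neural markers, 2 were called higher and Pax6 lower, the Pax6 call being lost without ES replicate 2 or 3 or EB replicate 1 or 3 (highest limma adjusted p = 0.109) and that of Nes without ES replicate 3 or EB replicate 1 or 3 (highest limma adjusted p = 0.0901). The part of these cell types in the fall of Greb1l and Cdk15 was not tested, and in bulk samples fewer cells of a type and less RNA per cell cannot be told apart.

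Between day 4 EBs and DMSO-treated EBs, Greb1l was higher by 0.29 ± 0.07 (1.23-fold), and its second probe set by 0.28 ± 0.06. The ranges of the 3 and 3 arrays were apart on both probe sets, which held in the same direction for 9.5% of all genes. The DMSO arrays entered the choice of Greb1l and Cdk15, so these values carry no test. For Cdk15 the difference was -0.10 ± 0.07, with ranges that overlapped. Greb1 did not pass the test at -0.12 ± 0.07 (limma adjusted p = 0.455). Of the 3 steps this one had the fewest calls over all genes, with 0.747% called and 0.537% called higher. Of 6 endoderm markers 2 were called higher in the same step, Gata6 and Ttr, the transthyretin gene of visceral endoderm, which differed by 0.97. The Ttr call was lost without EB replicate 1, DMSO replicate 1 or DMSO replicate 3 (highest limma adjusted p = 0.087), and the Gata6 call was lost in 10 of 12 fits that each left out 1 array (highest limma adjusted p = 0.198). Of 7 ATRA response genes Cyp26a1 alone passed the test in this step, being higher in the solvent group (0.75 ± 0.09, limma adjusted p = 0.0093), and this call was lost without EB replicate 1, DMSO replicate 1 or DMSO replicate 3 (highest limma adjusted p = 0.0788). The part of either in the Greb1l value was not tested.

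With ATRA, Cdk15 was higher than with DMSO by 1.72 ± 0.07 (3.29-fold) and Greb1l by 1.41 ± 0.07 (2.66-fold). Among all 19938 genes these were the differences of rank 7 and 21 from the top. The second Greb1l probe set gave a smaller difference, 1.16 ± 0.06 (2.23-fold), and the mean of both probe sets 1.28. The choice of Greb1l and Cdk15 rests on this contrast, in which 13.3% of genes were called, 6.26% higher and 7.05% lower, and the ranges of 19.6% were apart in the higher direction. Nothing is read from their place in it. Cell type markers moved in the same step. All 3 epiblast markers were called lower with ATRA, Otx2 (-2.17 ± 0.06), Fgf5 (-0.62 ± 0.13) and Pou3f1 (-0.20 ± 0.06), the last losing its call without DMSO replicate 1 or 2 or any of the ATRA replicates (highest limma adjusted p = 0.128). Of the 5 pluripotency genes, 2 were called lower, Zfp42 (-0.57 ± 0.06) and Sox2 (-0.20 ± 0.06), and the Sox2 call was lost in 7 of 12 fits that each left out 1 array (highest limma adjusted p = 0.144). Of 10 fibroblast markers, 3 were called lower and 2 higher, with Pdgfrb, a growth factor receptor gene, 2.82-fold higher. Of 3 neural markers Pax6 was called higher, by 0.70 ± 0.09. Of 6 endoderm markers Gata6 was called higher (0.42 ± 0.05) and Ttr lower (-0.54 ± 0.12), the latter not without DMSO replicate 1 or ATRA replicate 3 (highest limma adjusted p = 0.0547). Their part in the values of Greb1l and Cdk15 was not tested. Greb1 was not chosen on its values. It did not pass the test, at 0.08 ± 0.07 (limma adjusted p = 0.517). The 95% interval of its difference, from -0.08 to 0.24, applies to the probe set value, whose height over background is not known. The difference in response between the paralogues was not tested, because Greb1l was chosen for its own.

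The ATRA arrays also lay above the ES arrays, by 1.16 ± 0.07 for Greb1l and 1.15 ± 0.07 for Cdk15 (2.23-fold and 2.21-fold), with ranges apart as for 22.7% of genes in that direction. The level with ATRA thus went past the level that both genes had before EB formation. Against day 4 EBs without solvent the differences were 1.70 ± 0.07 for Greb1l and 1.62 ± 0.07 for Cdk15, with ranges apart as for 15.6% of genes. For Greb1 these differences were -0.17 ± 0.07 against ES cells, with ranges just apart, and -0.03 ± 0.07 against day 4 EBs. Ranges apart in the lower direction were found for 24.8% of genes between ATRA and ES cells, so the Greb1 reading is a common one. These comparisons share the ATRA arrays with the one that chose the genes.

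A fall into EBs followed by a higher level with ATRA was shared by many genes. The 2 comparisons, day 4 EBs against ES cells and ATRA against DMSO, share no array. They do share 1 fit and its estimate of the spread of each gene, so their calls are not independent. Of the 1249 genes called higher with ATRA, 579 were called lower in day 4 EBs than in ES cells, which is 46.4% of the first list, where 16.9% of all genes were called lower, and 17.2% of the second, where 6.26% of all genes were called higher with ATRA. Of the 68 genes that ATRA raised at least 2-fold, 53 had fallen in day 4 EBs and 8 had risen. Greb1l and Cdk15 are among the 53, as are Stra8, a gene of meiotic entry, Rarb, and Dhrs3, which encodes a retinaldehyde reductase. Cyp26a1, whose enzyme breaks retinoic acid down, and Stra6, whose receptor takes up retinol, rose in both steps. Their differences between day 4 EBs and ES cells were 1.22 ± 0.09 and 0.34 ± 0.06.

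**Figure D2:**
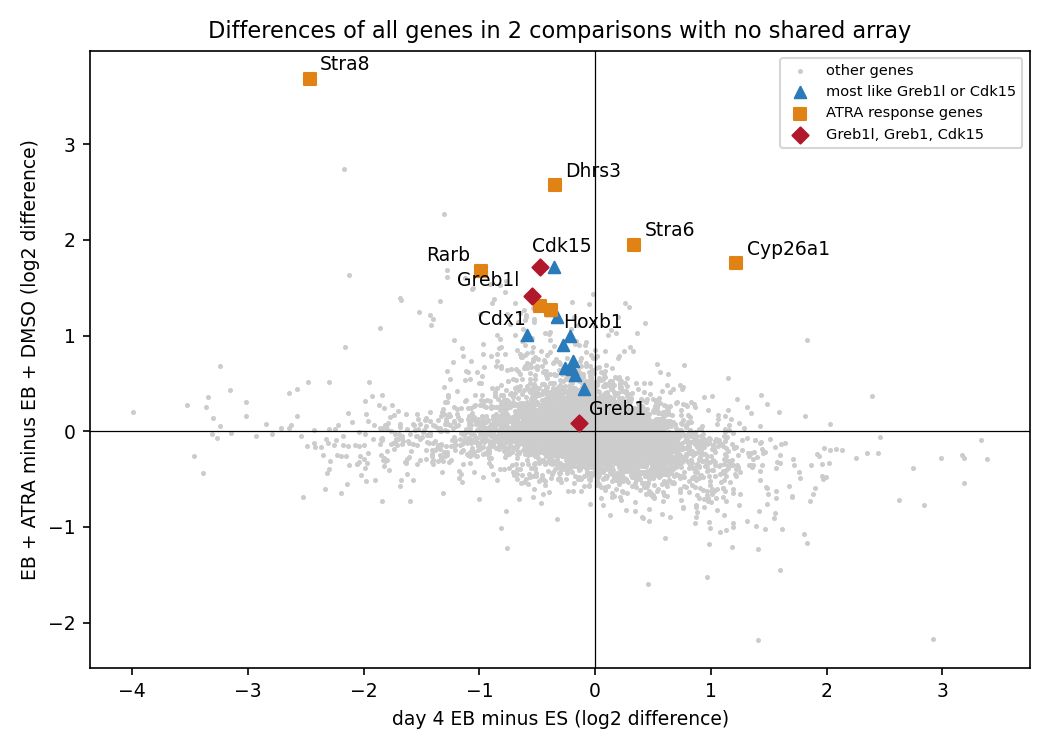
Each point is 1 of 19938 genes; the horizontal axis is the log2 difference of day 4 EBs from ES cells and the vertical axis that of ATRA from DMSO. Greb1l (-0.55 and 1.41) and Cdk15 (-0.48 and 1.72) lie in the upper left beside Rarb, Cdx1 and Hoxb1, Greb1 (-0.14 and 0.08) lies in the cloud of genes around the origin, and Cyp26a1 and Stra6 lie in the upper right.

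The genes most like each of the 3 in level were found by Pearson's r over the 12 arrays. These values are a description, since the 3 ATRA arrays dominate r for any gene that ATRA moved. For Greb1l the closest were Grasp, a scaffold protein gene (r = 0.981), Porcn, whose enzyme attaches the lipid to Wnt proteins (r = 0.978), Fignl2, the chloride channel gene Best1, Smyd4 and the tyrosine kinase gene Abl1 (r = 0.975). Grasp, picked for following Greb1l over these arrays, was lower in day 4 EBs than in ES cells (-0.59 ± 0.05). It was higher with ATRA than with DMSO by 1.01 ± 0.05, and higher with DMSO than in day 4 EBs by 0.34. The last call was lost without EB replicate 1 or 2 or DMSO replicate 1 or 3 (highest limma adjusted p = 0.0917). For Cdk15 the closest were Ryr1, the calcium release channel gene of skeletal muscle (r = 0.995), Smyd4 (r = 0.990), the homeobox genes Hoxb1 (r = 0.988) and Hoxb5 (r = 0.986), Afap1l1 and Tcp11. Hoxb5 differed with ATRA by 1.71 ± 0.11, almost as much as Cdk15, and Ryr1 by 0.65 ± 0.05. Smyd4, of a family of SET and MYND domain proteins, was in both lists. Greb1l and Cdk15 correlated with each other at r = 0.957, which put Cdk15 at rank 36 among all genes for Greb1l. The genes closest to Greb1 reached r of 0.889 to 0.932, with Nobox, an oocyte homeobox gene, at the top and the collagen gene Col3a1 and Npr3, a natriuretic peptide receptor gene, among them. None of these 6 was called between ATRA and DMSO, against 13.3% of all genes. They were picked for following Greb1, itself not called there, so nothing is read from this.

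The kinases nearest to Cdk15 differed with ATRA in both directions. The list of 8 measured genes held kinases of the Cdk14 to Cdk18 group, Cdk5, Cdk10 and the 2 Y-type cyclin genes. Of these 8, 1 was called higher and 2 lower with ATRA, against 6.26% and 7.05% of all genes. Their median difference was -0.04, against 0.01 for all genes. Cdk18 rose by 0.38 ± 0.05 (limma adjusted p = 0.000333), from 9.89 ± 0.06 with DMSO to 10.27 ± 0.06 with ATRA. Cdk14, the paralogue closest to Cdk15, fell (-0.31 ± 0.06, limma adjusted p = 0.00328), and so did Cdk17 (-0.18 ± 0.05, limma adjusted p = 0.0457), although the Cdk17 call was lost in 8 of 12 fits that each left out 1 array (highest limma adjusted p = 0.154). Cyclin Y itself (Ccny) did not pass at -0.04 ± 0.04. Between ES cells and day 4 EBs, 4 of the 8 were called lower and 0 higher, against 16.9% and 17.8% of all genes, with a median of -0.17. Cdk14 fell there by 1.31 on the log2 scale (-1.31 ± 0.06) and Cdk18 by 1.03 (-1.03 ± 0.05), against -0.48 ± 0.07 for Cdk15. Cdk18 thus had the same directions as Cdk15 in both steps, but its level with ATRA, 10.27 ± 0.06, stayed below its level in ES cells, 10.86 ± 0.07. Of 12 other cyclin-dependent kinase genes, only Cdk6, a kinase of the passage from G1 to S phase, was called with ATRA, against 13.3% of all genes. Cdk6 was lower (-0.87 ± 0.04).

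**Figure D3:**
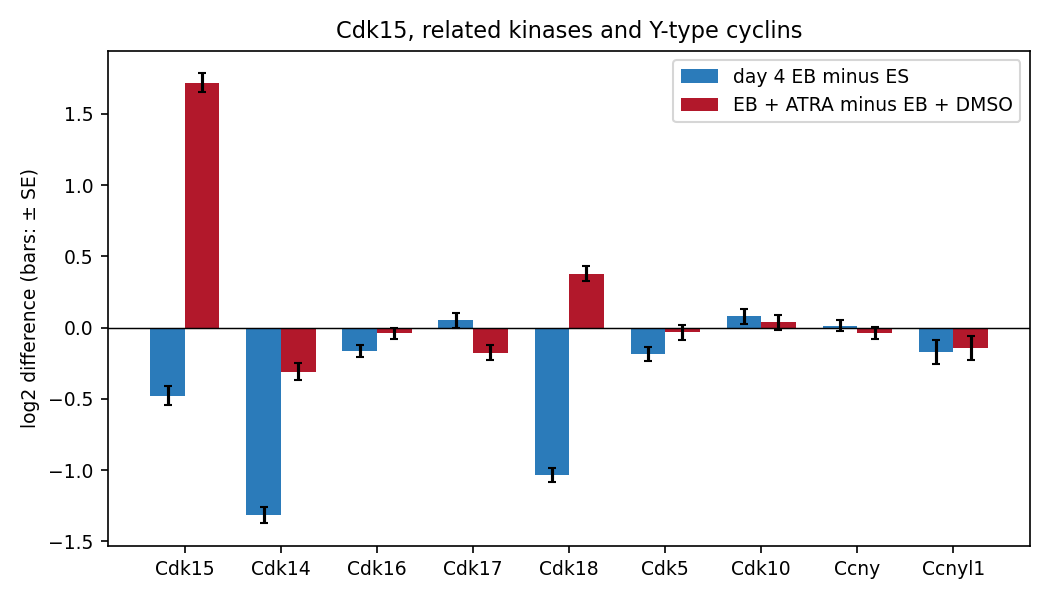
Log2 differences ± SE of Cdk15, 6 related kinases and 2 Y-type cyclin genes between day 4 EBs and ES cells (blue) and between ATRA and DMSO (red). Cdk15 (1.72), which was chosen for its rise with ATRA, has the one tall red bar, Cdk18 (0.38) a low one, and Cdk14 (-0.31) points down.

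Partners of Greb1 were read in the same arrays. Of 11 steroid receptor and coregulator genes measured, 2 were called higher and 1 lower with ATRA, against 6.26% and 7.05% of all genes. The receptor genes Esr1 (0.05 ± 0.11), Esr2 (0.07 ± 0.09) and Pgr (0.11 ± 0.10) did not pass. Their group means, 7.09 to 7.24, 6.83 to 7.01 and 6.64 to 6.79, were about as low as those of Greb1. Whether they lie above the background of the arrays was not tested either. Nrip1, a corepressor that retinoic acid is known to induce, rose by 1.06 ± 0.06, and Foxa1, a pioneer factor of the estrogen receptor in breast cells, by 0.44 ± 0.09. The coactivator gene Ncoa1 fell (-0.28 ± 0.05). Foxa1 and Nrip1 had fallen in day 4 EBs (-0.58 ± 0.09 and -0.20 ± 0.06), the same order of directions as in Greb1l. That order was common: of all genes called higher with ATRA, 46.4% were called lower in day 4 EBs. A link to Greb1l was not tested. Genes that estrogen regulates in breast cells, 15 measured with Pgr again among them, went both ways with ATRA. Of the 15, 4 were called higher (26.7%) and 2 lower (13.3%), beside the same 6.26% and 7.05% of all genes. Rara, a retinoic acid receptor gene, rose by 0.45 ± 0.05 and Xbp1, a factor of the unfolded protein response, by 0.29 ± 0.05, while Myb fell (-0.94 ± 0.12), and so did Myc (-0.27 ± 0.07). The Myc call was lost without DMSO replicate 2, ATRA replicate 1 or ATRA replicate 3 (highest limma adjusted p = 0.128), and that of Siah2, 1 of the 4 higher (0.14 ± 0.04), in 7 of 12 fits that each left out 1 array (highest limma adjusted p = 0.127). Greb1 itself, the classic member of that group, did not pass.

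Genes of kidney and inner ear development, the organs that need Greb1l, went in both directions with ATRA. Of 24 measured, 4 were called higher (16.7%) and 6 lower (25%) with ATRA, against 6.26% and 7.05% of all genes. Their median was 0.00 (0.01 for all genes). Gfra1, the gene of the receptor that binds the kidney growth factor GDNF, rose by 1.49 ± 0.06 (limma adjusted p = 2.02e-08), a difference of the size of that in Greb1l. Its levels were 9.96 ± 0.01 in ES cells, 8.90 ± 0.06 in untreated EBs, 8.70 ± 0.07 in the solvent group and 10.19 ± 0.12 with ATRA. Its partner Ret (0.08 ± 0.06) and the ligand gene Gdnf (0.05 ± 0.05) did not pass. Wt1, a transcription factor gene of the early kidney, rose by 0.47 ± 0.07, and Pax2, another, by 0.28 ± 0.09. Sox10, a neural crest factor gene, was the other one called higher (0.23 ± 0.07). The calls of Pax2 and Sox10 were lost in 9 and 7 of 12 fits that each left out 1 array (highest limma adjusted p = 0.183 and 0.159), and 2 were called higher in place of 4 without EB replicate 1 or 3, DMSO replicate 2 or 3, or ATRA replicate 1 or 3. The transcription factor and cofactor genes Eya1 (-0.62 ± 0.06), Six4 (-0.45 ± 0.06), Osr1 (-0.45 ± 0.07), Pax8 (-0.34 ± 0.06) and Sall1 (-0.27 ± 0.04) fell, as did Grhl2 (-0.64 ± 0.09), an epithelial factor gene of the inner ear. Between ES cells and day 4 EBs, 8 of the 24 were called higher (33.3%) and 7 lower (29.2%), against 17.8% and 16.9% of all genes. Without ES replicate 3, 5 were called higher.

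The genes beside Greb1l and Cdk15 differed with ATRA by -0.16 to 0.30 on the log2 scale. The 5 nearest measured genes on each side, in the order of the RefSeq table, were read for each of the 3 genes. Over all genes, 6.26% were called higher with ATRA and 7.05% lower. Beside Greb1l on chromosome 18, 1 of 10 was called higher with ATRA and 0 lower, and their median difference was -0.03. The one called was Abhd3, a lipase gene, at 0.30 ± 0.08 (limma adjusted p = 0.0202), and its call was lost without DMSO replicate 1 or 3 or ATRA replicate 2 or 3 (highest limma adjusted p = 0.0956). The adjoining genes Rock1 (-0.05 ± 0.06) and Esco1 (0.08 ± 0.07) did not pass. Beside Cdk15 on chromosome 1, 3 of 10 were called higher and 0 lower, with a median of 0.02: Stradb (0.29 ± 0.06), Gm973 (0.28 ± 0.06) and Trak2 (0.22 ± 0.05), whose call was lost without ATRA replicate 3 (limma adjusted p = 0.0546). The adjoining genes Mpp4 (-0.05 ± 0.06) and Fzd7 (-0.09 ± 0.04), a Wnt receptor gene, did not pass. Beside Greb1 on chromosome 12, 1 of 10 was higher and 1 lower, Kcnf1 (0.25 ± 0.06) and Pqlc3 (-0.49 ± 0.07), and the adjoining genes Ntsr2 (0.16 ± 0.10) and E2f6 (-0.03 ± 0.06) did not pass. Kcnf1 read 6.91 ± 0.09 in untreated EBs, 6.67 ± 0.03 with DMSO and 6.92 ± 0.05 with ATRA. Stradb, Gm973 and Trak2 also read lower with DMSO than in untreated EBs (-0.15 ± 0.06, -0.18 ± 0.06 and -0.09 ± 0.05). None of these differences between DMSO and untreated EBs was called. In the step from ES cells to day 4 EBs, Abhd3 fell with Greb1l (-0.44 ± 0.08), while Fzd7, next to Cdk15, rose by 1.07 ± 0.04.

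**Figure D4:**
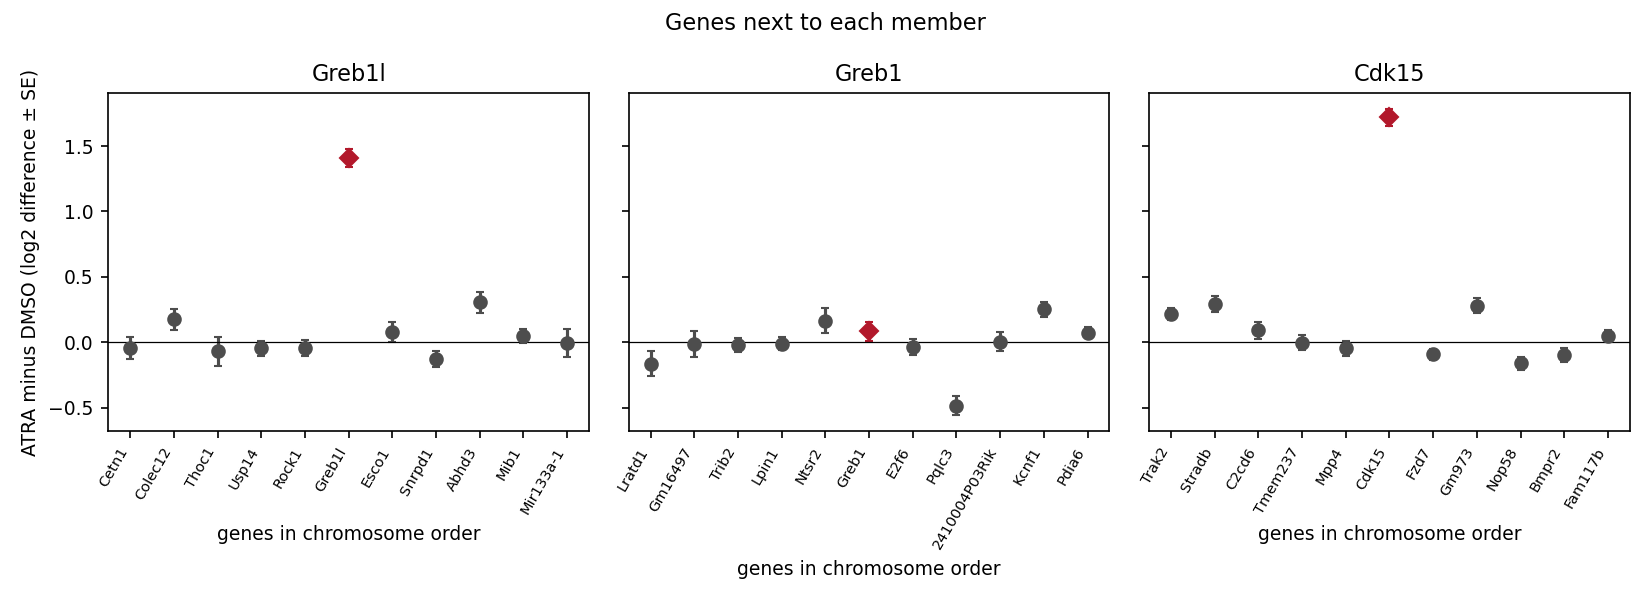
Log2 difference ± SE between ATRA and DMSO for Greb1l, Greb1 and Cdk15 (red) and the 5 nearest measured genes on each side (grey), in chromosome order and not to scale of distance. Greb1l (1.41) and Cdk15 (1.72) were chosen for their rise in this contrast, so their height over neighbours between -0.16 and 0.30 is a description only. Greb1 (0.08) lies among its own neighbours.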

How the data were processed

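Total RNA of 12 samples was hybridised to Affymetrix arrays after biotin labelling of single-stranded cDNA made with the Ambion WT Expression kit, per the labels' protocols. The authors deposited 1 table of log2 values for 35556 probe sets. The log2 scale is inferred from values of 2.30 to 14.74; the method of background correction, normalization and summarization is not given in the sources used here. High values can be compressed on arrays, and any change of total RNA per cell is hidden by such scaling. Of the probe sets, 21789 had exactly 1 symbol in the platform annotation, 1621 had several and 12146 had none there. Where a gene had several, the one with the highest mean was used, giving 19938 genes with no filter. Any pair of arrays shared at most 0.0562% identical values, and replicates correlated at 0.992 to 0.997. With 3 arrays a group, their number limits the precision.

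Differences were fitted with limma 3.58.1 in R 4.3.3 (a mean per group, all 12 arrays, eBayes with 8 residual and 3.93 prior degrees of freedom, tested on both sides, Benjamini-Hochberg adjustment over 19938 genes). The code was tested on simulated data. The members, gene lists and rules for named genes (the 3 genes, the 6 most correlated genes of each, called list members and neighbours) were chosen with earlier results of these data known; not every gene the rule allows is printed. Alternatives were other scalings, filters, probe set rules, priors, array weights, samples and a replicate block. ES replicate 2 and EB replicate 2, whose values were the least spread, were also left out together, an alternative added after the data were seen. Some genes of the lists are not reported here. The p-values reflect the spread between these replicates.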

Additional observations from a re-analysis of the deposited data

How the results depend on the processing

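Over 23 alternatives, the falls of Greb1l and Cdk15 between ES cells and day 4 EBs kept their direction and their call (-0.61 to -0.45 and -0.59 to -0.42, limma adjusted p at most 0.00227 and 0.00324). Greb1 was called in none of them in any of the 3 tested comparisons (lowest limma adjusted p = 0.0735). Leaving out single arrays gave -0.60 to -0.45 for Greb1l, -0.56 to -0.42 for Cdk15 and -0.19 to -0.07 for Greb1 in that step, 0.04 to 0.13 for Greb1 between ATRA and DMSO, and -0.19 to -0.06 between DMSO and day 4 EBs. The untested ATRA differences lay between 1.28 and 1.43 for Greb1l and between 1.68 and 1.74 for Cdk15. The mean of both probe sets moved Greb1l to 1.28 against DMSO and 1.57 against day 4 EBs. The small Greb1 difference between ATRA and day 4 EBs changed sign with array weights (0.0126) and without ES replicate 2 and EB replicate 2 (0.0214), and ran from -0.106 to 0.0214 without single arrays, above 0 without EB replicate 2 or ATRA replicate 2; the cause was not tested. Of 18 same-number pairs of arrays, 2 correlated above 0.1 in their deviations, and 3 of 12 arrays correlated best with their own number. Both pairs were of ES with day 4 EB arrays, at r = 0.303 for replicate 1 and 0.506 for replicate 2, against -0.065 for replicate 3. With a replicate block in the fit, Greb1l and Cdk15 kept their calls in that step (limma adjusted p = 0.000122 and 0.000167). With the replicate block the counts of called genes were 6848, 62 and 2553 in the 3 steps, in place of 6925, 149 and 2655. The count between DMSO and day 4 EBs was otherwise 253 after quantile normalization, 365 without the lowest 25% of genes by mean value, 626 with a trend and robust prior, 25 with only the 2 groups, 5 at an adjusted p of 0.01, and 27 without ES replicate 2 and EB replicate 2. Without single arrays it was 0 to 237, with limma calling 0 genes without EB replicate 1 (3080 at an unadjusted p under 0.05) or DMSO replicate 1 (2340). Between ATRA and DMSO it was 4311 with array weights, 1605 at an adjusted p of 0.01 and 1868 to 3107 without single arrays; between day 4 EBs and ES cells single arrays gave 6013 to 7102. The cause of these moves was not tested, beyond the stricter threshold and fewer arrays.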
